A study of Mus musculus with 12 samples.

Results

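The chemokines and their receptors were taken as every non-control probe whose gene name on the array is a chemokine or receptor symbol (Ccl, Ccr, Cxcl, Cxcr, Cx3cl, Cx3cr, Xcl, Xcr or Ackr followed by a number and, in some genes, a letter). This rule gave 77 probes (86 spots) of 58 genes, out of 39429 probes (43020 spots) on the array. Cortical RNA of 12 female mice, adult and about 12 weeks old, was profiled in 3 groups of 4: MRL/lpr, Fn14ko and MRL/+. MRL/lpr mice carry the lpr mutation of Fas and develop a lupus-like disease, and were the lupus-prone group. The Fn14ko mice, labelled Fn14koMRL, were bred as littermates of the MRL/lpr mice and lack Fn14 (Tnfrsf12a), the receptor of the cytokine TWEAK, so that they too are an lpr line by the study's methods. They came from a backcross, and the labels name no cell type to which the deletion is limited. The MRL/+ mice, labelled MRL/MpJ, are the background strain without lpr, and were bought from another source, so that breeding site differs with genotype. The RNA of 2 mice of the same group was hybridized to each array, one labelled with Cy3 (replicates 1 and 3) and the other with Cy5 (replicates 2 and 4), and both arrays of a group lay on 1 slide and were read in 1 scan. Slide, scan and group therefore cannot be told apart, and p-values measure the spread between the mice of a group.

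Tnfrsf12a, the deleted gene, was read by 1 probe, at 0.739, 0.777, 0.604 and 0.655 times the median retained spot of the channel in the Fn14ko mice. It gave 1.86, 1.57, 1.90 and 1.38 in MRL/lpr and 1.02, 1.18, 0.943 and 1.28 in MRL/+. The Fn14ko mice were the lowest, without overlap, by 1.27 ± 0.20 on the log2 scale below MRL/lpr (SE, limma adjusted p = 0.00351), while the difference of -0.67 ± 0.20 from MRL/+ was not called (adjusted p = 0.108). The probe was still well above background in 4 of 4 Fn14ko mice, and whether it lies within the deleted part of the gene was not determined. Fas stood between 1.52 and 6.43 times the floor (defined with the dim members) over the 12 mice and was called in no comparison.

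Chemokines are small secreted proteins that attract cells carrying the matching receptors, most of which are coupled to inhibitory G proteins. The atypical receptors (Ackr) bind chemokines without this coupling and remove them from the tissue. In brain, Cx3cl1 is made by neurons and read by Cx3cr1 on microglia, Cxcl12 acts through Cxcr4 and Ackr3 on neurons, precursor cells and vessels, and the inflammatory ligands are low until glia, endothelium or infiltrating cells are stimulated.

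Several probes can be read only with their sequence in view. Both Cxcl11 probes lie on the minus strand of chromosome 5 in the mm9 coordinates of the array files. Each stretch of 30 bases holds, in capitals, the 16 bases of its probe that recur most often elsewhere, counted in the promoters of the RefSeq table of GRCm38.p6. They are shown because the same letters occur outside Cxcl11.
Cxcl11 probe 1, chr5:92788591-92788620: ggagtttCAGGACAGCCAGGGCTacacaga
Cxcl11 probe 2, chr5:92788650-92788679: cttgaaaGGCAGAGGCAGGAGGAtctcttg

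The capitals of Cxcl11 probe 1 occurred in 24 of 32851 promoter windows, and those of probe 2 in 3. Counting every stretch of 16 bases, probe 1 shared letters with 19 probes of other genes on the array and probe 2 with 2. Among the 75 other member probes, 60 shared such a stretch with 0 probes of other genes and the highest number was 2. In promoter windows, the highest number among those 75 was 27, for Ackr3.

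A pair of Ccl27a probes and a pair of Cx3cr1 probes overlap. Their ends are shown, with the bases that the partner lacks in capitals. All 4 stretches are on the minus strand of mm9.
Ccl27a probe 1, chr4:41716345-41716374: ctaataaagcaacattagACGACAATCTCC
Ccl27a probe 2, chr4:41716387-41716416: GGTACTACAAAAgaaaatgtactcaaaccc
Cx3cr1 probe 1, chr9:119957806-119957835: gtcaataaacattggtttccttccaGCTCT
Cx3cr1 probe 2, chr9:119957841-119957870: CGTGCctagagtgtgtctatcccacttgta

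The Ccl27a probes share 48 of their bases and part over 12 at each end, and the Cx3cr1 probes share 55 and part over 5. Members of such a pair are not independent measurements of their gene. Ccl27a, Ccl19 and Ccl21b lie in a duplicated stretch of chromosome 4, for which the RefSeq table lists 2 symbols beginning with Ccl27, 4 with Ccl19 (3 of them pseudogenes) and 4 with Ccl21. Which copy these probes measured was not determined.

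Detection came before level. The scanner software marks a spot as well above background in a channel when its signal exceeds the background by the software's own test. By this mark, 11 of the 77 member probes were detected in all 12 mice, 48 in some and 18 in none, and 12 of the 58 genes had no probe detected in any mouse. Detection in all 4 mice of a group was reached by 31 probes in the MRL/lpr mice, 35 in the Fn14ko mice and 11 in the MRL/+ mice. Between 35 and 48 member probes were detected per MRL/lpr mouse and between 40 and 44 per Fn14ko mouse. In MRL/+, 40 and 34 were detected in the Cy3 mice, but 21 and 12 in the Cy5 mice, in which the share of all spots detected was also lowest, at 35% and 21.2%.

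**Figure D1:**
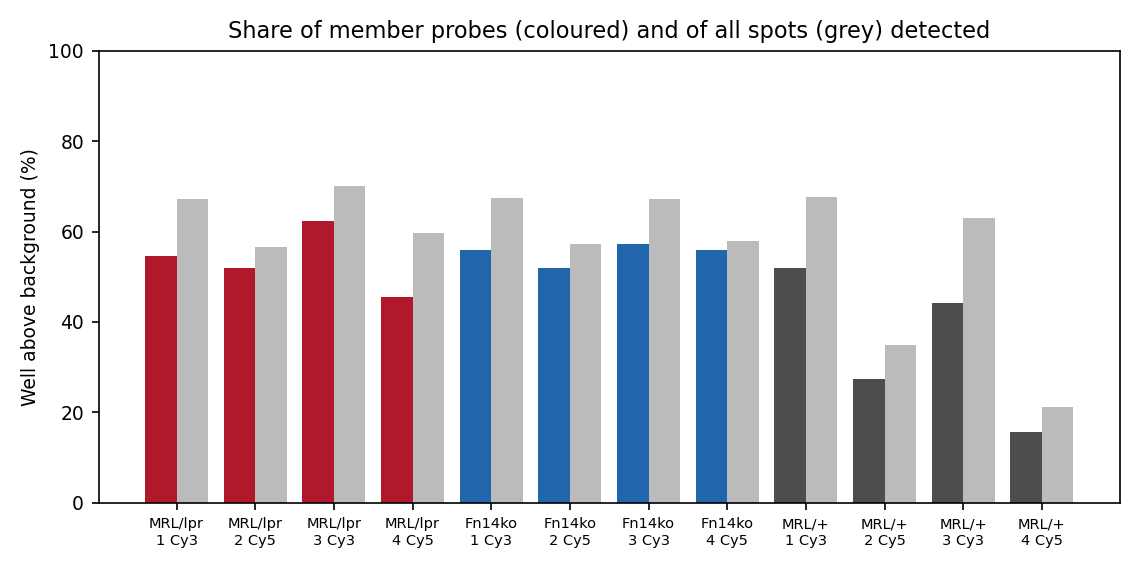
Share of probes well above background in each mouse, in percent (vertical axis), for the 77 member probes (coloured bars) and for all 43020 non-control spots (grey bars); the mouse number and dye stand under each bar pair. Members were detected less often than spots at large in each of the 12 mice, and both shares were lowest in the Cy5 mice of MRL/+, at 27.3% and 15.6% of members.

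After spots marked as uneven or as outliers, and spots under 2 times the local background in any mouse, were left out, 28 member probes of 19 genes could be tested. Another 47 were too dim in at least 1 mouse and 2 were marked. The retained set is a filtered one: the receptors Ccr2, Ccr7, Cxcr3, Cxcr4, Cxcr5 and Cxcr6 and the ligands Cxcl9, Cxcl10, Cxcl13 and Cxcl16 are outside it, and are described further on by their intensities. Signals of retained probes are given as multiples of the median retained spot of their channel, and compare mice, not genes. With 4 mice a group, log2 differences carried a standard error of 0.27 at the median.

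Between MRL/lpr and MRL/+, 9 of the 28 member probes, of 5 genes, passed the limma threshold (adjusted p under 0.05 over 22419 probes), each higher in MRL/lpr. They were the 4 probes of Ccl27a, both of Cxcl11, 1 of Cxcl12, the Cx3cl1 probe and 1 of Ccl19. Over all probes tested, 5.69% were called higher and 9.3% lower in this comparison, against 9 and 0 of 28 members. The median log2 fold change was 0.30 over the 28 members and -0.15 over all probes. Between MRL/lpr and Fn14ko, 7 member probes of 3 genes (Ccl27a, Cxcl11 and Ccl19) were called higher in MRL/lpr and 0 lower, against 2.27% and 1.76% of all probes. Their median was 0.35, against -0.08 over all. Between Fn14ko and MRL/+, 1 member probe, of Cxcl12, was called higher and 0 lower, against 0.227% and 0.865% of all probes, with medians of 0.05 and -0.14. The 3 comparisons share their groups of mice, and their counts are not separate evidence. The 4 probes of Ccl27a and the pair of Cxcl11 count single genes more than once.

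**Figure D2:**
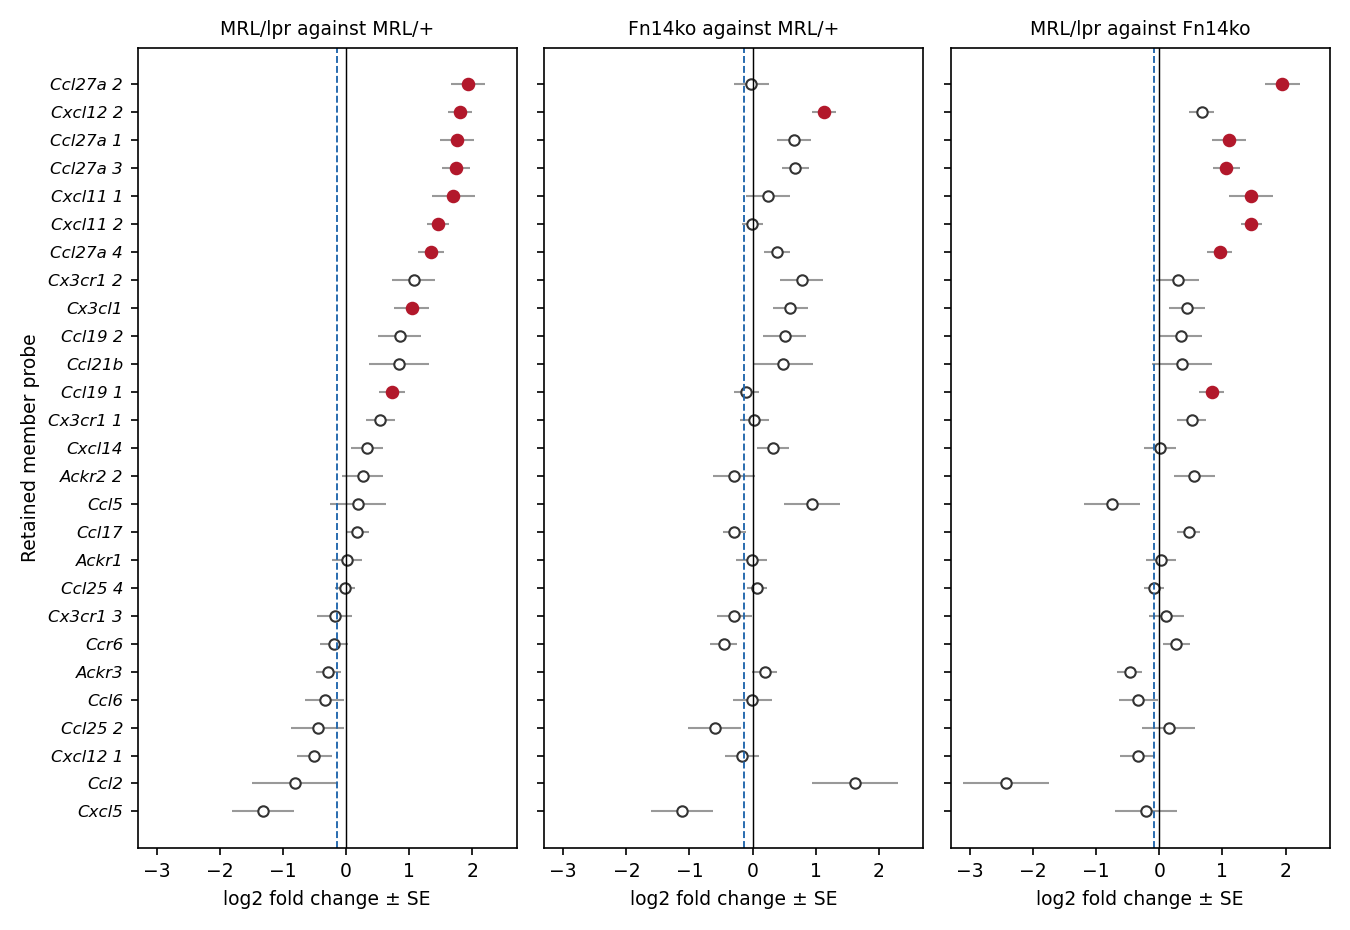
Log2 fold change with its standard error (horizontal axis) of 27 of the 28 retained member probes (rows, in the order of the first comparison) in the 3 comparisons, with limma calls filled in red, other probes open and the median of all 22419 probes as a dashed blue line. The called probes lie on the right of 0 in each panel, 9, 1 and 7 in number from the left panel (MRL/lpr against MRL/+) through the middle one (Fn14ko against MRL/+) to the right, and Ccl2 is the farthest to the left in MRL/lpr against Fn14ko, at -2.42.

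Among the inflammatory ligands, Cxcl11, an interferon-inducible ligand of Cxcr3, was higher in MRL/lpr by both of its probes. Its probe 2 gave 2.24, 2.56, 2.41 and 2.13 in the 4 MRL/lpr mice. In the Fn14ko mice it gave 0.744, 0.868, 0.961 and 0.833, and in the MRL/+ mice 0.839, 0.921, 0.899 and 0.751. The MRL/lpr mice did not overlap with either group, and the ranges of the other groups overlapped throughout. The log2 fold change was 1.45 ± 0.17 (SE, n = 4 per group) against MRL/+ and 1.46 ± 0.17 against Fn14ko, with adjusted p-values from limma of 4.97e-04 and 6.91e-04. Between Fn14ko and MRL/+ it was -0.00 ± 0.17.

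The signal of Cxcl11 probe 1 was 78.5, 100.5, 94.4 and 84.6 in the MRL/lpr mice, 20.7, 32.0, 46.5 and 36.0 in the Fn14ko mice and 31.5, 21.1, 44 and 19.3 in the MRL/+ mice. Again every MRL/lpr mouse lay above all others. The log2 fold change was 1.70 ± 0.35 against MRL/+ and 1.46 ± 0.35 against Fn14ko (limma adjusted p = 0.00775 and 0.0323). On the signal processed by the scanner software it was 0.26 against MRL/+ with an adjusted p of 0.391, while that of Fn14ko against MRL/+ became -1.14. Within the Cy3 mice it was 1.21 and within the Cy5 mice 2.19, and its call was lost without replicate 4 of MRL/+. Against Fn14ko the call was lost without any 1 of 5 mice (replicates 2, 3 and 4 of MRL/lpr, 2 of Fn14ko and 4 of MRL/+), with values from 1.18 to 1.59, and within the Cy3 mice (1.47, adjusted p = 0.0732).

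The 19 probes of other genes that share 16 bases with Cxcl11 probe 1 were set beside it. Of these, 17 were retained, and 5 of them were called higher and 2 lower in MRL/lpr against MRL/+, with log2 fold changes from -1.35 to 2.36 and a median of 0.18. Cfap300 followed Cxcl11 probe 1 with a correlation of 0.96 over the 12 mice, and Elk1, at a mean signal of 181 in MRL/lpr, with 0.78. LF198557 had the highest log2 fold change of MRL/lpr, at 2.36 against MRL/+ and 2.59 against Fn14ko (limma adjusted p = 3.8e-04 and 2.8e-04). Its correlation with Cxcl11 probe 1 was 0.93. LF198557 was also the gene most like Cxcl11 probe 2 among all probes, with a correlation of 0.98. Over the 17 probes the correlation with Cxcl11 probe 1 ran from -0.85 to 0.96. Of the 2 probes that share letters with Cxcl11 probe 2, 1 was retained, that of Rn4.5s. It was called higher in MRL/lpr against MRL/+ too, by 2.37 on the log2 scale (limma adjusted p = 0.0036), with mean signals of 90.9 in the MRL/lpr mice, 38.2 in the Fn14ko mice and 21.0 in the MRL/+ mice, and its correlation with Cxcl11 probe 2 was 0.81. The part that transcripts holding these letters have in the Cxcl11 signals was not tested. Cxcl9 and Cxcl10, the other ligands of Cxcr3, did not pass the filter, and are given with the intensities.

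Ccl27a, a ligand of Ccr10 that shares its locus with the gene of an interleukin-11 receptor chain, rose in MRL/lpr by all 4 probes. Probe 2 gave 10.9, 17.5, 9.24 and 12.4 in the MRL/lpr mice, 2.30, 3.24, 4.19 and 3.13 in the Fn14ko mice and 2.58, 2.78, 3.83 and 3.76 in the MRL/+ mice. The lowest MRL/lpr mouse was above the highest of the other 8. The log2 fold change was 1.93 ± 0.27 against MRL/+ and 1.95 ± 0.27 against Fn14ko (limma adjusted p = 0.00111 and 0.00177).

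The overlapping Ccl27a probe 1 gave 10.2, 16.2, 8.80 and 12 in MRL/lpr, but 4.07, 5.86, 7.16 and 4.72 in Fn14ko, against 2.94, 3.94, 3.36 and 3.40 in MRL/+. Here the Fn14ko mice lay between the other groups without overlap. The log2 fold change was 1.76 ± 0.27 for MRL/lpr against MRL/+, 1.11 ± 0.27 against Fn14ko, and 0.65 ± 0.27 for Fn14ko against MRL/+, of which the last was not called (limma adjusted p = 0.182). The call against Fn14ko was lost in 8 of 12 omissions of a single mouse (replicates 1, 2 and 4 of MRL/lpr, 1, 2 and 4 of Fn14ko, and 3 and 4 of MRL/+), with values from 0.96 to 1.33, and within the Cy3 mice it was 0.81 (adjusted p = 0.163). Probes 1 and 2, which share most of their bases, thus gave like values in MRL/lpr and MRL/+ and unlike values in Fn14ko.

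Ccl27a probes 3 and 4, which do not overlap the pair, gave Fn14ko values nearer to MRL/+ than to MRL/lpr. Probe 3 gave 10.6, 10.4, 8.90 and 9.03 in the MRL/lpr mice, 4.39, 4.48, 6.30 and 3.74 in the Fn14ko mice and 2.74, 2.45, 3.27 and 3.22 in the MRL/+ mice. Probe 4 gave 7.45, 6.68, 6.55 and 6.62 in the MRL/lpr mice, 2.84, 3.51, 4.51 and 3.38 in the Fn14ko mice and 2.75, 2.42, 3.13 and 2.49 in the MRL/+ mice. The MRL/lpr mice were separate from all others by either probe, and the Fn14ko mice from MRL/+ by probe 3 alone. Against MRL/+, MRL/lpr was higher by 1.74 ± 0.22 and 1.34 ± 0.20, and against Fn14ko by 1.06 ± 0.22 and 0.96 ± 0.20. The calls against Fn14ko were lost without replicate 3 or 4 of MRL/+, and that of probe 4 also without replicate 1 of MRL/lpr, with values from 0.95 to 1.22 for probe 3 and from 0.82 to 1.06 for probe 4, while the calls against MRL/+ held in all 12 omissions for each of the 4 probes. Ccr10, its receptor, was dim: it is among the probes in bright surroundings described further on.

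Ccl19, a ligand of Ccr7 that draws T cells and dendritic cells, had 2 retained probes that did not give the same call. Probe 1 gave 1.55, 1.24, 1.06 and 1.37 in the MRL/lpr mice, 0.791, 0.648, 0.863 and 0.635 in the Fn14ko mice and 0.850, 0.906, 0.718 and 0.672 in the MRL/+ mice. The MRL/lpr mice lay above the others, by 0.73 ± 0.20 against MRL/+ and 0.83 ± 0.20 against Fn14ko on the log2 scale (limma adjusted p = 0.0307 and 0.0369). Probe 2, on the neighbouring stretch, gave 0.85 ± 0.34 and 0.34 ± 0.34, neither of them called (adjusted p = 0.101 and 0.699). Both are placed on the plus strand in mm9, while the RefSeq promoter of Ccl19 is on the minus strand. The call of probe 1 against MRL/+ was lost without any 1 of 5 mice (replicates 1 and 4 of MRL/lpr, 2 of Fn14ko, and 3 and 4 of MRL/+), where the log2 fold change ran from 0.64 to 0.86 over all 12 omissions. Against Fn14ko it was lost without any 1 of 7 mice (replicates 1 and 4 of MRL/lpr, 1, 2 and 4 of Fn14ko, and 3 and 4 of MRL/+), with values from 0.74 to 0.96, and 13 of 25 other settings kept it. Ccl21b, the neighbouring Ccr7 ligand, was bright but scattered: 19.6, 18.3, 11.6 and 14.6 in the MRL/lpr mice, 12.08, 18.3, 10.9 and 9.44 in the Fn14ko mice and 12.4, 6.12, 18.0 and 4.36 in the MRL/+ mice. Its groups overlapped, and its difference of 0.84 ± 0.47 between MRL/lpr and MRL/+ was not called (adjusted p = 0.209).

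**Figure D3:**
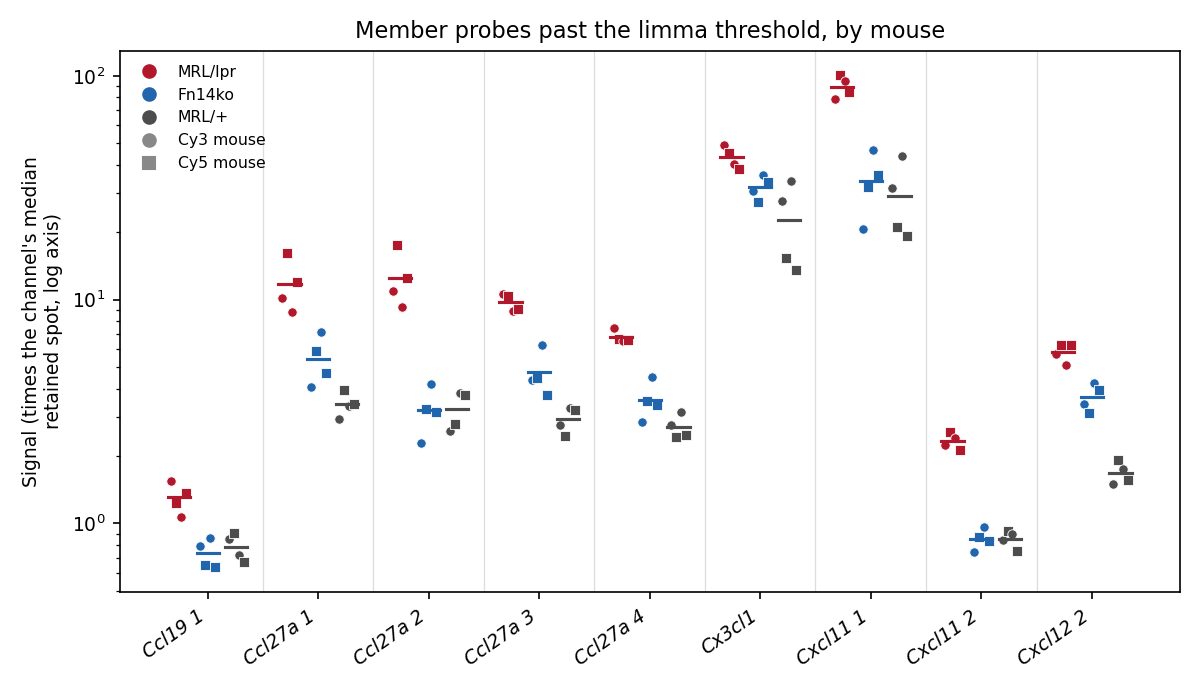
Signal of the 9 member probes past the limma threshold in at least 1 comparison, as multiples of the median retained spot of the channel (vertical log axis), with 1 point per mouse (circles Cy3, squares Cy5) and a bar at the group mean. The MRL/lpr mice lie above every MRL/+ mouse in all 9, and for Cxcl12 probe 2 the Fn14ko mice lie between 3.10 and 4.25, apart from both groups.

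Of the ligands that the healthy brain makes, Cxcl12 was measured by probes of 2 transcript variants. Probe 2, named on the array for transcript variant 3 (chr6:117131227-117131286), gave 5.69, 6.28, 5.10 and 6.28 in the MRL/lpr mice, 3.42, 3.10, 4.25 and 3.95 in the Fn14ko mice and 1.5, 1.93, 1.74 and 1.56 in the MRL/+ mice. The 3 groups did not overlap. The log2 fold change was 1.80 ± 0.19 for MRL/lpr against MRL/+ and 1.13 ± 0.19 for Fn14ko against MRL/+ (limma adjusted p = 2.96e-04 and 0.0191), while the difference of 0.67 ± 0.19 between MRL/lpr and Fn14ko was not called (adjusted p = 0.0737). Within the Cy3 mice the first 2 differences were 1.74 and 1.24, and within the Cy5 mice 1.86 and 1.02. The call for Fn14ko was lost without replicate 3 of Fn14ko or 4 of MRL/+, with values from 1.05 to 1.21 over the 12 omissions.

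Probe 1, named for transcript variant 1 (chr6:117125026-117125085), was dim. It gave 0.355, 0.374, 0.293 and 0.325 in the MRL/lpr mice, 0.419, 0.445, 0.30 and 0.578 in the Fn14ko mice and 0.468, 0.764, 0.320 and 0.450 in the MRL/+ mice. The groups overlapped, and the log2 fold change between MRL/lpr and MRL/+ was -0.51 ± 0.28 (adjusted p = 0.195). It was 0.03 on the scanner software's processed signal and 0.09 with dim probes kept, so that no direction can be given for this probe. Ackr3, which takes up Cxcl12, gave 1.19, 0.953, 1.35 and 1.23 in the MRL/lpr mice, 1.40, 1.76, 1.44 and 1.96 in the Fn14ko mice and 1.44, 1.51, 1.23 and 1.52 in the MRL/+ mice. It did not overlap between MRL/lpr and Fn14ko, at -0.47 ± 0.20 on the log2 scale, with an adjusted p of 0.232 by limma. Its adjusted p was 0.302 for MRL/lpr against MRL/+ and 0.517 for Fn14ko against MRL/+, so that it was called in no comparison.

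Cx3cl1, the neuronal membrane-bound chemokine, gave 49.2, 45.0, 40.5 and 38.3 in the MRL/lpr mice, 30.6, 27.3, 36.2 and 33.7 in the Fn14ko mice and 27.6, 15.4, 33.7 and 13.6 in the MRL/+ mice. The MRL/lpr mice lay above the rest. The lowest values were those of the Cy5 mice of MRL/+. The log2 fold change against MRL/+ was 1.04 ± 0.28 (limma adjusted p = 0.0280), which was 0.55 within the Cy3 mice (adjusted p = 0.327) and 1.52 within the Cy5 mice. It was -0.04 on the scanner software's processed signal, and the call was also lost without replicate 2 or 4 of MRL/lpr, 2 of Fn14ko or 4 of MRL/+, with values from 0.81 to 1.26 over the 12 omissions.

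Its receptor Cx3cr1, a marker of microglia, had 3 retained probes and no call. Probe 1 gave 2.63, 3.72, 2.79 and 3.70 in the MRL/lpr mice, 2.40, 1.65, 2.58 and 2.38 in the Fn14ko mice and 2.02, 2.18, 2.21 and 2.33 in the MRL/+ mice. The MRL/lpr mice lay above both groups, by 0.54 ± 0.23 against MRL/+ (adjusted p = 0.112). The overlapping probe 2 gave 1.07 ± 0.34 (adjusted p = 0.0511) and probe 3, elsewhere in the gene, -0.18 ± 0.28 (adjusted p = 0.652). Probe 2 stood in bright surroundings on 1 MRL/lpr array.

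The remaining retained members were called in no comparison. Cxcl14, an orphan ligand of interneurons, ranged from 7.68 to 15.7 over the 12 mice, with 0.33 ± 0.25 between MRL/lpr and MRL/+. Ccl25, Ccl17 and Ccl6 among the ligands, and Ccr6, Ackr1 and Ackr2 among the receptors, lay between -0.60 and 0.56 on the log2 scale in all 3 comparisons. Cxcl5 lay at -1.31 ± 0.49 in MRL/lpr against MRL/+ (adjusted p = 0.0824), but its intensity did not exceed 3.38 times the floor defined below in any mouse. Not overlapping between groups was not rare among probes at large: 24.8% of all probes and 10 of the 28 members were separate between MRL/lpr and MRL/+, 19.5% and 12 between MRL/lpr and Fn14ko, and 14.0% and 5 between Fn14ko and MRL/+.

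The members outside the test, and the low ones inside it, were described by their intensity over a floor, which is the median foreground of the 8824 spots detected in no mouse. Of those spots, 95% lay below 1.26 to 1.63 times that median, depending on the channel. Of the 49 untested member probes, 17 stayed under 2 times the floor in every mouse, among them Ccr1, Ccr2, Ccr4, Cxcr1, Cxcr5, Ccl20, Ccl22 and Xcl1. At this sensitivity their transcripts were not detectable, which does not show that they were absent.

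Ccl2, a monocyte attractant that acts through Ccr2, was highest in the Fn14ko mice. It is printed in 10 spots of the same probe, whose median was 7.62, 45.5, 5.45 and 28.0 times the floor in the Fn14ko mice. The median was 2.69, 2.28, 5.34 and 1.32 in the MRL/lpr mice and 2.01, 1.04, 1.41 and 1.01 in the MRL/+ mice. All 10 spots were marked as detected in each Fn14ko mouse, while in the Cy5 mice of MRL/+ 0 of 10 were. By this ratio every Fn14ko mouse was above every other mouse, and the Cy5 mice (replicates 2 and 4) were the high ones.

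After scaling, the Ccl2 spots had medians of 0.419, 3.14, 0.199 and 1.74 in Fn14ko, 0.106, 0.248, 0.177 and 0.148 in MRL/lpr, and 0.358, 0.537, 0.0924 and 0.407 in MRL/+. On this scale, which adds an offset of 50 to each spot, the Fn14ko and MRL/+ mice overlapped. Only 1 of the 10 spots passed the filter and 6 carried a mark in some channel. From the retained spot, limma gave 1.61 ± 0.68 when Fn14ko was compared with MRL/+ (adjusted p = 0.191), and MRL/lpr differed from Fn14ko by -2.42 ± 0.68 (adjusted p = 0.0698). The 2-sided exact permutation test on the spot medians gave p = 0.229 and 0.0571 (0.229 and 0.171 after Benjamini-Hochberg adjustment over 3 tests), where the smallest p that 4 against 4 mice allow is 0.0286. On the scanner software's processed signal, the limma differences were called, at 3.55 (adjusted p = 0.0249) and -3.45 (adjusted p = 0.0199). Within the Cy5 mice, the same differences were 2.53 and -3.72. Within the Cy3 mice they were smaller, at 0.70 and -1.12, and neither was called.

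On chromosome 11, the probes of Ccl7, Ccl11, Ccl12 and Ccl8 follow that of Ccl2 in this order, and they did not share a pattern. Ccl7 stood at 1.38, 6.61, 1.57 and 8.27 times the floor in Fn14ko, and between 1.00 and 2.20 in the other 8 mice. Ccl8 stood at 2.71, 4.39, 5.47 and 34.2 in Fn14ko, 1.5, 1.31, 6.83 and 2.57 in MRL/lpr, and between 0.83 and 1.13 in MRL/+. For Ccl7 the high mice were again Fn14ko replicates 2 and 4, and for Ccl8 replicate 4, while MRL/lpr replicate 3 was above the other 3 Fn14ko mice. Ccl12, another ligand of Ccr2, was highest in an MRL/lpr mouse, at 2.33, 3.88, 4.33 and 1.20 in MRL/lpr, 1.92, 2.92, 1.83 and 3.78 in Fn14ko, and 2.84, 1.09, 1.5 and 0.73 in MRL/+. Its groups overlapped. Ccl11, an eosinophil attractant, stayed between 0.91 and 2.02 in all 12 mice. Ccl8 was detected in all 4 Fn14ko mice and in 0 of the MRL/+ mice, and was at least 2.20-fold higher in Fn14ko, by the rule for a group below background (loess within arrays and Aquantile scaling, open to dye bias); its log2 means were 8.62 and 6.76, and limma with dim probes kept gave an adjusted p of 0.563.

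Of the ligands of Cxcr3, Cxcl9 and Cxcl10 showed their highest intensity by probe 1 in the same mouse, Fn14ko replicate 4. Cxcl11, unlike them, was highest in MRL/lpr. Cxcl10 probe 1 stood at 2.39, 4.77, 2.18 and 12.4 times the floor in Fn14ko, 2.22, 3.44, 3.61 and 1.46 in MRL/lpr, and 1.16, 0.91, 1.38 and 0.99 in MRL/+. Cxcl9 probe 1 stood at 2.40, 2.52, 2.50 and 11.8 in Fn14ko, 1.14, 1.23, 2.31 and 1.24 in MRL/lpr, and 1.00, 0.86, 1.10 and 1.02 in MRL/+. Both of these probes were detected in 4 of 4 Fn14ko mice and 0 of 4 MRL/+ mice. In MRL/lpr, that of Cxcl10 was detected in 3 mice and that of Cxcl9 in 1. For Fn14ko against MRL/+ the differences were at least 1.53-fold and 1.49-fold by the same rule (limma adjusted p = 0.563 for each). Between MRL/lpr and MRL/+ the rule gave no bound above 1 for Cxcl10. The other probe of each gene did not show this pattern. Cxcl10 probe 2 was detected in 0 mice and stayed between 0.81 and 1.14 times the floor. With dim probes kept, Cxcl9 probe 2 differed by 0.06 ± 0.47 on the log2 scale between Fn14ko and MRL/+ (limma adjusted p = 0.934). Cxcr3, found on activated T cells, stood at 4.62 times the floor in Fn14ko replicate 4 and at most 1.5 in the other 11 mice.

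Ccl5, a T-cell product, passed the filter. It stood at 5.74, 5.53, 12.2 and 24.0 times the floor in Fn14ko, 10.3, 4.22, 5.98 and 5.68 in MRL/lpr, and 2.08, 1.14, 1.80 and 0.97 in MRL/+. By intensity over the floor, which is not scaled between channels, both lpr groups were above MRL/+ without overlap. A raised floor lowers this ratio, and the floor was raised in the Cy5 mice of MRL/+ (115.8 and 107.4 intensity units). How many probes at large separate by this ratio was not counted, here or for Ccl2. On the scaled signal, limma called neither 0.94 ± 0.45 for Fn14ko against MRL/+ (adjusted p = 0.224) nor 0.19 ± 0.45 for MRL/lpr (adjusted p = 0.779), while on the scanner software's processed signal both were called, at 2.65 and 1.89 (adjusted p = 0.0117 and 0.0246). Within the Cy3 mice the scaled differences were 0.98 for Fn14ko and 0.34 for MRL/lpr. Within the Cy5 mice they were 0.90 and 0.04, and none of these was called. Cxcl13, the B-cell attractant of Cxcr5, stood at 6.39 in Fn14ko replicate 4 and at most 1.78 elsewhere. Cxcl16 stayed between 0.81 and 3.25 in all mice.

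**Figure D4:**
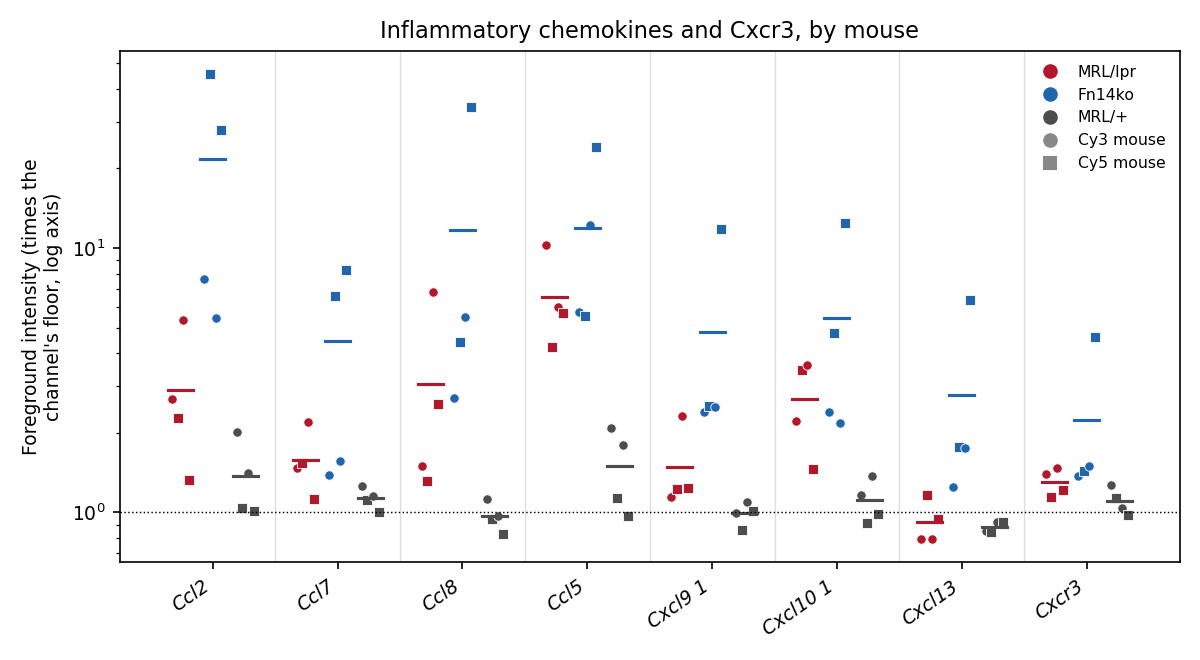
Foreground intensity over the channel's floor (vertical log axis; dotted line at 1) of 7 inflammatory ligands and the receptor Cxcr3, with 1 point per mouse (circles Cy3, squares Cy5) and a bar at the group mean; Ccl2 is the median of 10 spots. Fn14ko replicate 4 is the highest mouse for 7 of the 8 probes shown, and for Ccl2 it is second to replicate 2. The ratio is not scaled for the brightness of a channel.

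Across all 77 probes, Fn14ko replicate 4 was the highest mouse over the floor for 11, MRL/lpr replicate 1 for 21 and MRL/lpr replicate 3 for 20, so that the 8 probes plotted do not stand for the family. Since replicates 2 and 4 of a group are its Cy5 mice, mouse and dye cannot be told apart here. Cxcl2, a neutrophil attractant, stood apart by dye and not by group, at 3.55 to 4.59 times the floor in the 6 Cy5 mice and at 0.97 to 1.34 in the 6 Cy3 mice, in every group alike. The Cy5 mice of MRL/+ had a raised floor of 115.8 and 107.4 intensity units, against 31.9 to 59.3 in the other channels. Marker lists of other cells were read in the same mice: the summed signal of the T-cell list was 4.97 to 8.41 in Fn14ko, 7.95 to 11.6 in MRL/lpr and 6.94 to 16.3 in MRL/+, with Cd3g detected in 0 of the 12 mice, and that of the B and plasma cell list was 1.43 to 5.96, 0.824 to 1.45 and 0.845 to 4.06, with Ms4a1 in 0. Only 3 of 8 T-cell and 3 of 7 B and plasma cell probes passed the filter. The median spot detected in no mouse had a scaled signal of 0.0722 to 0.531 in MRL/+. It was 0.0529 to 0.129 in MRL/lpr and 0.0503 to 0.238 in Fn14ko. Low sums therefore also follow the floor of their channel, and are not read as differences between groups. The meningeal list reached 20.0 in 1 Fn14ko mouse, against at most 7.73 outside that group. Their part in the chemokine intensities was not tested.

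Promoters of Cxcl9 and Cxcl10 are shown because these members had the same highest mouse and both are known targets of interferon. They are the 250 bases before the start, from the RefSeq table of GRCm38.p6, both on the minus strand. Capitals mark the core of the interferon-stimulated response element, searched as GAAANNGAA on both strands.
Cxcl10, chr5:92348890-92349139: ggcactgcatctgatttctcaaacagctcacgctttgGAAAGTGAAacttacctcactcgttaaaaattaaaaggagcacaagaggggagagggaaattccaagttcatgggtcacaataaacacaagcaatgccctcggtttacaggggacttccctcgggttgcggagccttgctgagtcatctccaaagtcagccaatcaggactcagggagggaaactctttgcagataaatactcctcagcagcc
Cxcl9, chr5:92328080-92328329: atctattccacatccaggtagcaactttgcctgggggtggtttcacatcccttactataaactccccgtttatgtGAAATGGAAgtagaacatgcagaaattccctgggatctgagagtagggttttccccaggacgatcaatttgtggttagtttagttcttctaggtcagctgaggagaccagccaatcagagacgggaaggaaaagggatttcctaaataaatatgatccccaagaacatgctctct

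This core was found in windows of 8 of the 43 member genes in the table, and in 8.56% of all 32851 windows, each of which reaches a little past the start. TTCNNNGAA, the core of the gamma-activated site, was found in 3 of the 43 and in 8.30% of all windows, and GGGACTTTC, a kappa B core, in 0 of the 43 and in 0.353% of all. The Ccl8 window, also in the table, held none of the 3. A match is a run of letters and not a measured site.

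The members detected in all 4 MRL/lpr mice and in 0 of another group stood apart by position on the slide. In the MRL/lpr channels, 10.6% to 12.9% of all spots lay in bright surroundings (the dim spots within 4 rows and 4 columns above 2 times the channel's median dim spot), and in every other channel 0%. Xcr1, the receptor of the dendritic cells that take up Xcl1, was detected in 4 of 4 MRL/lpr mice and in 0 of the other 8, at 5.88, 2.82, 5.72 and 2.88 times the floor against at most 1.12. The dim spots around it stood at 2.32, 1.64, 5.44 and 2.84 times their median in the same 4 channels. Cxcr4 was detected in 4 MRL/lpr, 0 Fn14ko and 2 MRL/+ mice, at 8.04, 3.74, 7.71 and 3.68 times the floor in MRL/lpr, with surroundings of 7.68, 3.88, 6.04 and 3.43. For Cxcr4, signal and surroundings were thus of like size in each mouse. For Xcr1 they were so on the second array (replicates 3 and 4), while on the first the signal was above its surroundings.

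The bounds for these receptors, at least 2.08-fold for Cxcr4 and 1.97-fold for Xcr1 in MRL/lpr over Fn14ko (limma with dim probes kept, adjusted p = 0.166 and 0.490; log2 means 8.09 and 6.94, and 7.80 and 6.63), describe spots in bright surroundings. Cxcr6 probe 2 read 101.5 and 93.3 times the floor on the first MRL/lpr array and 1.41 and 1.19 on the second, where its surroundings were 88.2, 87.5, 1.04 and 0.96. Cxcr6 probe 1 read 0.89, 1.03, 3.37 and 1.79 in the same mice, with surroundings of 0.71, 0.93, 2.62 and 1.66. Cxcl1 (detected in 4 MRL/lpr, 2 Fn14ko and 0 MRL/+ mice), Cxcl15, Ccl28, Ccr7, Ccr10, Ccl1 and Ccl9 also had bright surroundings on at least 1 MRL/lpr array. In Fn14ko, Cxcl1 stood at 1.38, 9.15, 1.37 and 4.23 times the floor, in surroundings of at most 0.99. Its high Fn14ko mice were replicates 2 and 4, the Cy5 mice. In all, 14 member probes had bright surroundings on an MRL/lpr array, and 3 of them were in the test, Ccl19 probe 2, Cx3cr1 probe 2 and Cxcl14. The 9 called probes did not lie in such surroundings. With all such spots left out, 9 of 25 members were called between MRL/lpr and MRL/+. The number was also 9 between MRL/lpr and Fn14ko, and it was 1 between Fn14ko and MRL/+. The shares over all probes are not given for this setting, so these counts are not read as a result about the family.

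**Figure D5:**
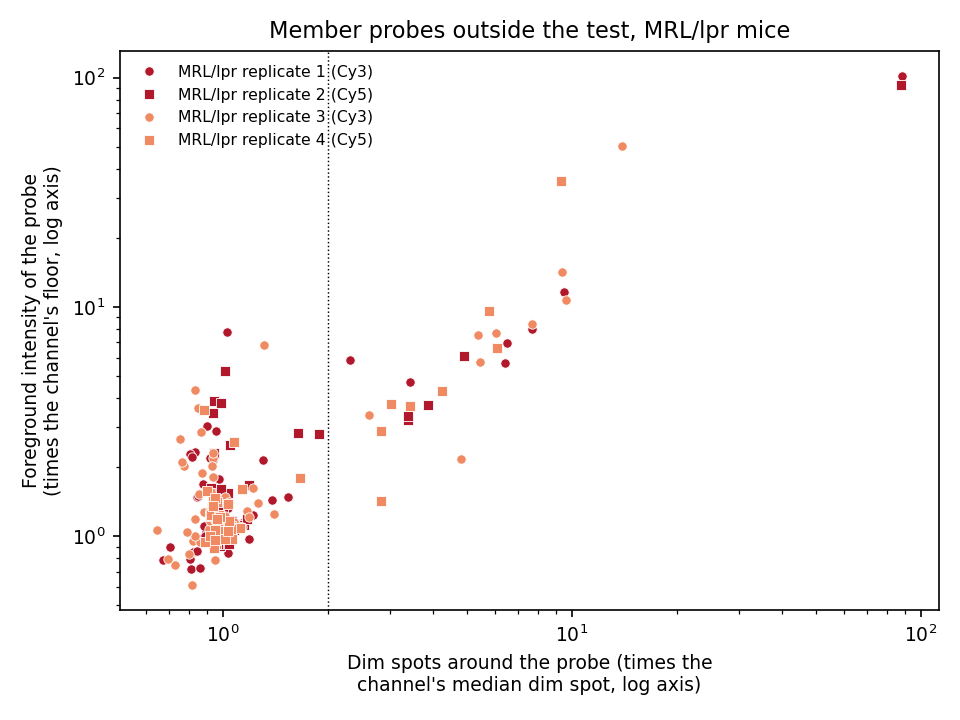
Intensity over the floor (vertical log axis) of the 49 member probes outside the test in each MRL/lpr mouse, against the level of the dim spots around them (horizontal log axis; dotted line at 2 times the median, above which surroundings were called bright). The highest point is Cxcr6 probe 2 at 101.5 on the first array, in surroundings of 88.2.

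Most genes listed as acting after the receptors were measured, and most were not called. Of 62 listed pathway genes on the array, 50 had 77 probes in the test. Of these probes, 7 were called higher and 8 lower when MRL/lpr was set against MRL/+, and 2 higher and 2 lower when it was set against Fn14ko. These are 9.09% and 10.4% of the pathway probes, beside 5.69% and 9.3% of all probes, in the first comparison, and 2.60% each, beside 2.27% and 1.76%, in the second. The comparison of Fn14ko with MRL/+ held 0 calls. The shares lay near those of all probes, and the genes below are named as a description. The median log2 fold change of the pathway probes was -0.02, beside -0.15 over all probes, in the first comparison. It was -0.08, beside -0.08, in the second, and 0.03, beside -0.14, in the third.

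In the receptor coupling branch, 1 of 13 probes was called. It was Arrb1, a beta-arrestin that ends receptor signalling, at a mean of 16.6 ± 1.67 (SD, n = 4) in the MRL/lpr mice, 13.8 ± 1.36 in the Fn14ko mice and 6.83 ± 3.58 in the MRL/+ mice, which was 1.43 ± 0.36 on the log2 scale against MRL/+ (limma adjusted p = 0.0206). In the lipid and calcium branch, Prkcd, a protein kinase C, was lower in MRL/lpr by both probes, at -2.01 ± 0.33 and -2.14 ± 0.23 against MRL/+ and -1.91 ± 0.33 and -1.69 ± 0.23 against Fn14ko. Ptk2b, a calcium-activated kinase that chemokine receptors engage, was lower against MRL/+ by -1.0 ± 0.18 and -1.82 ± 0.34, and Prkcb was higher by 0.76 ± 0.23. The second of the Ptk2b probes lay in bright surroundings.

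In the cytoskeleton branch, Prex1, the exchange factor that links Gi-coupled receptors to Rac, was higher in MRL/lpr by both probes, at 1.42 ± 0.24 and 1.11 ± 0.17 against MRL/+ and 1.07 ± 0.24 and 0.93 ± 0.17 against Fn14ko. Prex1 was also among the 3 genes most like Cxcl11 probe 2 over the 12 mice, with r = 0.98. The most like was LF198557, also at 0.98, a gene with a probe that shares a stretch of bases with Cxcl11 probe 1. Rhoa was lower against MRL/+ by -1.03 ± 0.25. Among kinases and transcription factors, Akt2 (0.98 ± 0.23 and 1.55 ± 0.26) and Stat2 (0.65 ± 0.15), which carries interferon signals, were called higher, and Gsk3b and Stat3 lower, the latter at -1.91 ± 0.51. The Stat3 probe was at 2.01 times the floor in MRL/+, which is near the floor. The inducers Ifng and Tnf were detected in 0 of 12 mice.

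Of the listed genes with other symbols, which are family genes or reported chemokine receptors outside the family, 5 of 11 were on the array and 3 probes were tested. Pitpnm3, a reported Ccl18 receptor in man, was called higher in MRL/lpr against MRL/+, with means of 3.06 ± 0.501 (SD, n = 4), 1.68 ± 0.658 and 0.813 ± 0.238 in MRL/lpr, Fn14ko and MRL/+ and a difference of 1.95 ± 0.25 on the log2 scale (limma adjusted p = 6.82e-04).

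The called members were compared with all 22419 probes for likeness of profile over the 12 mice, as Pearson's r and with no test, since samples of a group share a slide. Ccl27a probes 2 and 3 were most like Brsk1 (r = 0.99 and 0.98), a neuronal kinase. Cxcl12 probe 2 was most like Cspg5 (0.98), Cx3cl1 most like Gtdc1 (0.98), Cxcl11 probe 1 most like Clca3a1 (0.98) and Ccl19 probe 1 most like Myo1h (0.97).

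In a piece of tissue, fewer cells of a type and less RNA per cell cannot be told apart. Neuronal, astrocytic and oligodendrocytic markers were detected in these samples, as the label cortex asks. The summed neuronal list was 53.2 to 62.3 in the MRL/lpr mice, 61.2 to 77.8 in the Fn14ko mice and 45.3 to 78.7 in the MRL/+ mice, with 2 of 6 probes called lower in MRL/lpr against MRL/+ and 1 against Fn14ko. The median log2 fold change of the neuronal probes was 0.11 against MRL/+ and -0.08 against Fn14ko, so these calls do not stand for the list. The summed microglial list was 54.8 to 84.1 in the MRL/lpr mice, 49.9 to 76.3 in the Fn14ko mice and 57.2 to 75.7 in the MRL/+ mice, with 1 probe called higher and 1 lower of 11 against MRL/+. The endothelial list was 17.8 to 21.6, 9.03 to 18.5 and 9.44 to 13.0, with 2 of 4 probes called higher in MRL/lpr against MRL/+. The haemoglobin and erythroid list was 91.3 to 229.6, 32.9 to 95.2 and 24.3 to 46.8, with 1 of 3 probes called higher. The astrocytic sum was 8.99 to 12.12 and the oligodendrocytic 57.8 to 95.7 over all mice, that of neutrophils and monocytes 0.51 to 2.26 with Ccr2 detected in 0 mice, and that of the choroid plexus 6.63 to 99.4 in the MRL/lpr mice, 14.1 to 183 in the Fn14ko mice and 17.0 to 268 in the MRL/+ mice, with 1 of 6 probes called lower in MRL/lpr against MRL/+. Of 5 oligodendrocytic probes tested, 1 was called higher and 1 lower against MRL/+, and 1 higher against Fn14ko. Against Fn14ko, 1 of 2 neutrophil and monocyte probes was called higher and 1 of 3 B and plasma cell probes lower. The sums of these lists are low enough for the floor of a channel to weigh in them. Probes of the endothelial and blood lists were thus called higher in the same comparison as the 9 members. Some probes of the neuronal and choroid plexus lists were called lower, and the microglial and oligodendrocytic calls went both ways. The part of these cells in the member calls was not tested.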

How the data were processed

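Cortical RNA of 12 mice was hybridized in pairs to 6 2-colour Agilent arrays. The deposited intensity values are the mean foreground and median local background of each spot, and the processed signal, which the authors' extraction software (Agilent Feature Extraction) had corrected for background and dye. The deposited marks (0 or 1) of detection, saturation and uneven spots were used as given. Groups follow the labels. The members and gene lists were chosen with earlier results of these data known.

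Background was corrected by normexp (offset 50), channels were divided by the median of their retained spots, and marked spots and spots under 2 times the local background in any mouse were left out. limma 3.58.1 (R 4.3.3) was fitted to log2 values with terms for group and dye and a random array block. Benjamini-Hochberg adjustment ran over 22419 probes (threshold 0.05). On simulated data with 200 changed probes among 22419, for MRL/lpr against MRL/+, 42% were recovered at 1 log2 unit and 71% at 2. The number of arrays limits the precision. Named were all genes with a call, genes detected in 4 of 4 mice of a group and 0 of another, and a fixed list of brain and lupus pairs; Cxcl2, Ccl7, Ccl8, Ccl11, Ccl12, Ccl1 and other dim members were named after their values were seen. A few genes are counted in the totals but not reported here by name. Alternatives were other background corrections, scalings, filters, blocks and dyes, the t-test of the methods, and omission of single mice or arrays. Averaging spots before the filter and leaving out spots in bright surroundings were chosen after seeing the data. Python 3.11.15 and scipy 1.17.1 were also used.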

Additional observations from a re-analysis of the deposited data

Results flagged for a closer look

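Among 120 groups of 4 mice, 5 held a value far from the other 3 by Dixon's test, where chance gives about 1 in 20. Ccl8 was 2.12 times the median retained spot in Fn14ko replicate 4, against 0.198 to 0.410 in the other 3. Ccl5 was 1.49 in the same mouse, against 0.367 to 0.488. Cxcl14 was 14.2 in Fn14ko replicate 3, against 11.3 to 11.6. Ccl27a probe 4 was 7.45 in MRL/lpr replicate 1, against 6.55 to 6.68. Ccl25 probe 2 was 0.323 in MRL/lpr replicate 2, against 0.224 to 0.239.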

How the results depend on the processing

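The numbers of called members (9, 1 and 7 for MRL/lpr against MRL/+, Fn14ko against MRL/+ and MRL/lpr against Fn14ko) depended on the filter and the test. With dim probes kept they were 0, 0 and 0 of 75, with 34, 6 and 16 at an unadjusted p under 0.05 by limma (45.3%, 8.0% and 21.3%, beside 33.2%, 6.24% and 8.38% of all 38661 probes, of which 16, 0 and 38 were called). With bright surroundings also left out they were 12, 2 and 1 of 63, beside 5.18%, 0.212% and 1.26% of all 31120 probes. For MRL/lpr against MRL/+, gene means gave 4 genes, where the 9 called probes are of 5 genes. The Cy5 mice alone gave 14 probes and the methods' t-test after Benjamini-Hochberg 5. For MRL/lpr against Fn14ko, gene means gave 2 genes, where the 7 called probes are of 3 genes. The Cy3 mice alone gave 2 probes, and the t-test 3 after adjustment and 13 before. For Fn14ko against MRL/+, background subtraction and the processed signal gave 5 each, negative controls 2, loess with Aquantile 3, probes detected in all 12 mice 0, normexp without offset 0, no array block 2, the Cy5 mice alone 9, and the t-test 0 after adjustment and 4 before. Leaving out a mouse or an array gave 6 to 12, 0 to 2 and 2 to 9, and without MRL/+ replicate 4 the last was 2. Apart from the settings with dim probes kept, the counts of this section stand without shares over all probes. They are not read as results about the family.

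With a replicate block the counts were 12, 2 and 9. Same-numbered mice correlated from -0.13 to 0.72 and 7 of 12 matched their own number best, so the numbers are not a pairing.

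With a call on 1 side at least, the direction turned for Ccl21b (-1.04) and Cxcl11 probe 1 (-1.14) in Fn14ko against MRL/+ and for Cx3cl1 (-0.042) in MRL/lpr against MRL/+ on the processed signal, and for Ccl25 probe 2 (0.48) in MRL/lpr against MRL/+ with loess and Aquantile. Counting differences that were not called, the processed signal turned the sign of 24 of 84 (28 members in 3 comparisons), among them Ccl25 probe 2 (0.92), Cxcl12 probe 1 (0.03) and Ccl2 (0.10) in MRL/lpr against MRL/+. The cause was not tested. Of 2472 values, 2143 kept their direction and side of the threshold or stayed within a margin that is not given here. The numbers of called members still fell to 0, 0 and 0 with dim probes kept.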
